A study of Homo sapiens with 12 samples.

Results

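Transcript levels of 10 transcription factor genes of the AP-1 and small MAF families were measured by RNA sequencing in SW872 cells, a human liposarcoma line. The 10 genes are FOS, FOSB, FOSL1 and FOSL2 (FOS family), JUN, JUNB and JUND (JUN family), ATF3, and MAFF and MAFK (small MAF). They were found by name, as the rows of the counts table with these symbols, and the set was drawn up with earlier results of these data known. Each gene had 1 row among the 58735 rows of the table, and all 10 were among the 18415 genes with enough counts to be tested.

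The cells stably expressed 1 of 2 fusion proteins, TAZ-CAMTA1 (TC) or YAP-TFE3 (YT), which join the TEAD-binding part of a Hippo pathway coactivator to another transcription factor. In either line a short hairpin RNA was stably expressed, which targeted no gene (shNT), YEATS2 (shYEATS2) or ZZZ3 (shZZZ3). YEATS2 and ZZZ3 are parts of ATAC, a complex that acetylates histones. The groups TC shNT, TC shYEATS2, TC shZZZ3, YT shNT, YT shYEATS2 and YT shZZZ3 had 2 libraries each. SW872 cells without a fusion were not analysed here, so that each group carries one. According to the methods of the study, fusion-expressing cells were pooled stable lines made by retroviral transduction and drug selection. For RNA sequencing in general, lines that contained CAMTA1 were collected before confluence and the rest after it. Whether the same was done here is not stated, so the fusion and the growth state cannot be told apart in comparisons of the lines. The comparisons address how expression differs with a hairpin against either subunit in cells that carry each fusion. Whether a difference came through the target of the hairpin was not tested.

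AP-1 factors bind DNA as dimers through a basic leucine zipper. JUN proteins pair with themselves, with FOS proteins or with ATF factors, whereas FOS proteins need a partner, and the dimers bind TGAGTCA or the related site TGACGTCA. Several of the genes, among them FOS, FOSB, JUN, JUNB, ATF3 and MAFF, are immediate early or stress-induced genes, whose transcripts appear within minutes of growth factor, serum or stress signals and decay quickly. The small MAF proteins have a basic leucine zipper but no activation domain, and they act on antioxidant response elements as partners of NRF2 (NFE2L2) or of the repressor BACH1. YAP and TAZ bound to TEAD are known to share many enhancers with AP-1.

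Total counts ranged from 17451893 to 29294805 per library. Replicates differed by more than counting noise in each group, with a chi-square per degree of freedom of 11.8 to 119, and were widest apart in TC shNT and YT shZZZ3. The level of YEATS2 was 113 and 123 CPM (counts scaled to library size, with normalisation between libraries) in TC shNT and 45.5 and 35.1 in TC shYEATS2, and in the YT line 115 and 117 without and 33.9 and 38.5 with that hairpin. The knock-down passed the test in both lines (adjusted p = 0.0138 and 1.04e-04, edgeR quasi-likelihood test). Here and below a gene is called, or passes, where its p adjusted over all genes tested is under 0.05, and log2 fold changes are of the first group over the second. ZZZ3 stood at 25.6 and 60.4 CPM in the TC control against 21.9 and 22.7 in TC shZZZ3, a difference that did not pass (adjusted p = 0.450), so that group is named below by its hairpin alone. The paper reports a knock-down of ZZZ3 protein in TC cells by western blot, and whether in the cells of these libraries is not stated. The ZZZ3 transcript was at 71.2 and 49.1 CPM in YT shNT against 12.6 and 29.6 in YT shZZZ3 (adjusted p = 0.0453), and at 31.4 and 30.7 CPM in YT shYEATS2 (log2 fold change -0.95, adjusted p = 0.130), close to the second YT shZZZ3 library. All 8 mesenchymal markers examined were detected, with FN1 at 2580 to 10500 CPM and VIM at 696 to 2150 CPM. Of the adipocyte markers, FABP4 (at most 0.296 CPM) and ADIPOQ (at most 0.0516 CPM) were at or near 0, and PPARG was at 36.8 to 109 CPM.

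The families were first compared per transcript length, because counts of genes of different lengths cannot be set against each other. JUND was the most abundant of the 10 genes, with a mean of 21 ± 6.59 CPM per kb of exon (SD over the 12 libraries), followed by FOSL2 at 14 ± 3.37. MAFK, FOSL1, JUN and JUNB followed between 8.76 and 9.85 CPM per kb, and their ranges over the libraries overlapped. ATF3 (2.49 ± 1.99) and MAFF (2.42 ± 1.75) were lower and varied most for their level. Per kb of the longest transcript in place of all exons they were at 4.74 and 4.13, so these levels depend on the length used. FOS (0.922 ± 0.242) and FOSB (0.197 ± 0.0604), the members known for the shortest induction after a stimulus, were the lowest, with 46 to 82 and 9 to 41 counts per library.

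Within the FOS family FOSL2 took 50.4% to 70.4% of the summed level per kb and FOSL1 24% to 46.2%, whereas FOS took at most 5.92% and FOSB at most 1.32%. In the JUN family the share of JUND was 44.5% to 58.1%. The share of JUN was 14.9% to 24.6% in the 8 libraries with another hairpin and 30% to 39.5% in the 4 libraries with shZZZ3. Of the summed level of MAFF and MAFK, MAFF took 32.6% and 35.8% in YT shNT and 10.7% to 21.6% in the other 10 libraries. MAFG, the other small MAF gene, is not included in these shares.

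**Figure D1:**
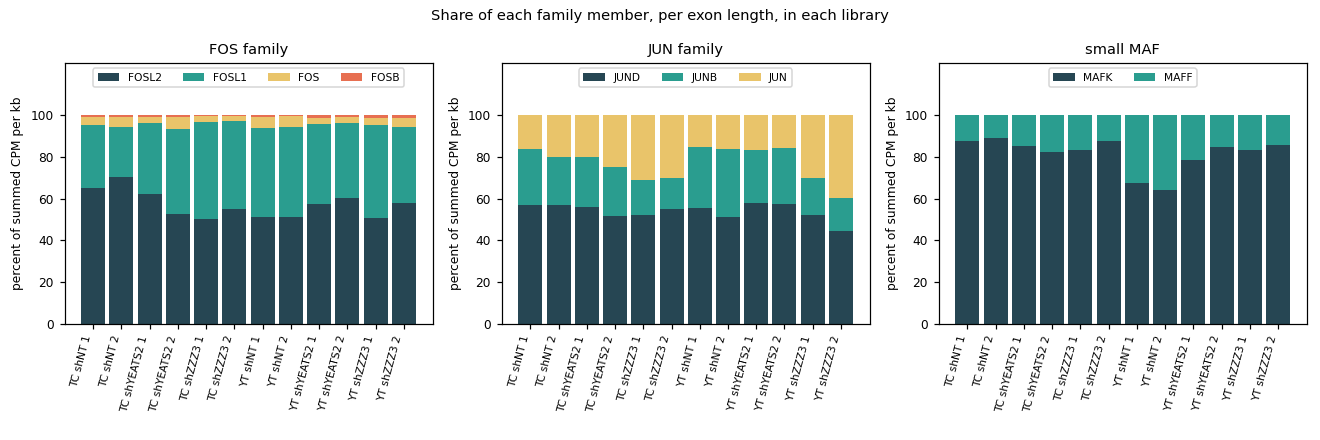
Share (percent of the summed CPM per kb of exon) of each gene in its family in the 12 libraries, labelled by group and replicate, with stacked colours for the genes. FOSL2 and FOSL1 make up most of the FOS family in each library, the share of JUN is highest in both shZZZ3 groups, and MAFF takes its largest share of the 2 small MAF genes in YT shNT.

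Of the 10 genes, ATF3 and MAFF moved most across the comparisons. In these bulk libraries fewer cells that express a gene and less RNA per cell cannot be told apart. Both had levels over 6 times as high in the YT control as in the TC control, fell with either hairpin in YT, and rose with shZZZ3 in TC. JUN rose with shZZZ3 in both lines and with shYEATS2 in YT. In TC shYEATS2 none of the 10 genes passed (0 by edgeR, 3 at an unadjusted p under 0.05, 1 by DESeq2), where 0.0434% of the 18415 genes tested were called and 927 had an unadjusted p under 0.05. With shZZZ3 in TC 4 of the 10 genes rose (FOSL1, JUN, ATF3 and MAFF), against 1.53% of all genes called in either direction and 0.934% called higher. With shYEATS2 in YT JUN rose and FOS, ATF3 and MAFF fell, where 20.7% of all genes were called, 9.61% higher and 11.1% lower. With shZZZ3 in YT JUN rose and FOS, ATF3 and MAFF fell, where 10% of all genes were called, 4.4% higher and 5.62% lower. Both comparisons in YT share the YT shNT libraries, so they are not independent of each other.

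The median log2 fold change of the 10 genes was 0.20 in TC shYEATS2, 0.65 in TC shZZZ3, -0.02 in YT shYEATS2 and -0.38 in YT shZZZ3, where the median over all genes lay between -0.01 and 0.01. Between the control lines it was 0.41, against -0.01 over all genes, and 2 genes were called (ATF3 and MAFF, both higher in YT shNT), against 9.23% of all genes called and 5.58% called higher. The difference of a hairpin's effect between the lines (its log2 fold change in YT less that in TC) was tested as an interaction. It was called for ATF3 and MAFF with the YEATS2 hairpin (9.37% of all genes called, 5.84% lower in YT), and for FOSL1, ATF3, MAFF and MAFK with the ZZZ3 hairpin (4.32% of all genes called, 2.86% lower in YT), in each case lower in YT.

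**Figure D2:**
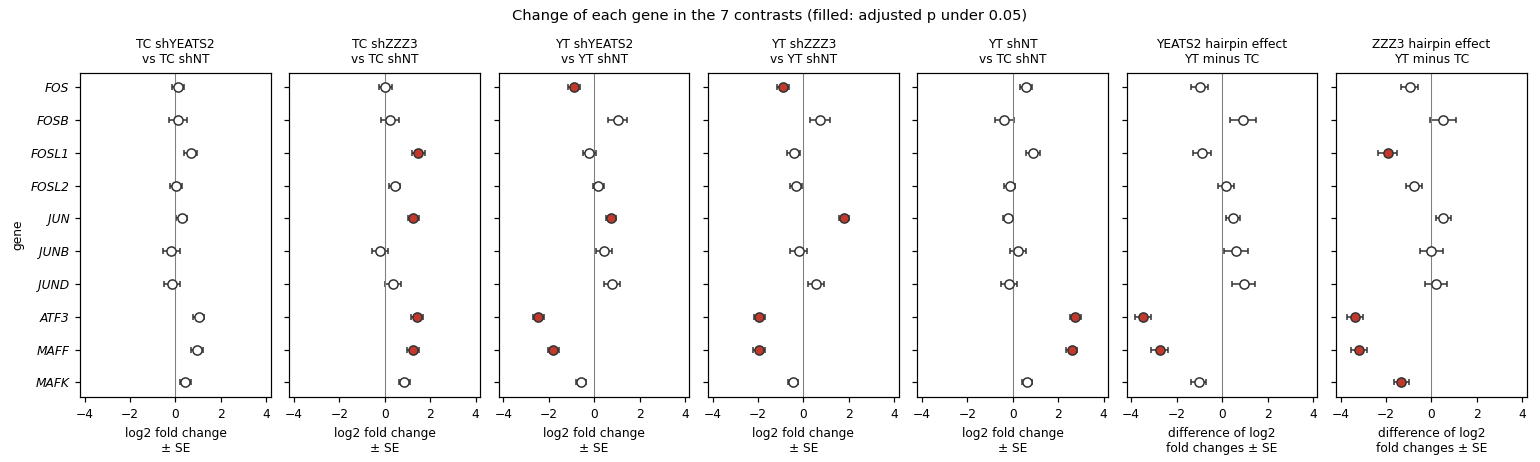
Log2 fold change of each gene (horizontal axis, ± SE from the edgeR fit) in the 5 pairwise comparisons, and the difference of log2 fold changes in the 2 interactions, with filled circles for adjusted p under 0.05. ATF3 and MAFF lie farthest from 0, to the right for YT shNT against TC shNT and to the left for both hairpins in YT and for both interactions.

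Of the FOS family, FOS itself (chromosome 14, GRCh38 75278826 to 75282230) was at 4.12 and 4.49 CPM in YT shNT, 2.21 and 2.37 CPM in YT shYEATS2 and 2.33 and 2.16 CPM in YT shZZZ3. The control libraries were above each library with either hairpin in YT, and the log2 fold changes were -0.89 (SE 0.271, adjusted p = 0.0348) and -0.91 (SE 0.268, adjusted p = 0.0482). The second of these calls was lost under 4 of 8 alternatives (other scalings, filters, models and DESeq2), scaling by library totals among them (adjusted p = 0.0502), and without any 1 library other than those of TC shYEATS2. The first was lost without the filter on low counts (adjusted p = 0.0647), and without any 1 library of YT shNT, YT shYEATS2 or TC shZZZ3. In TC, FOS was at 2.90 and 2.77 CPM in shNT, 2.57 and 3.57 in shYEATS2 and 3.33 and 2.46 in shZZZ3, and the groups overlapped.

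FOSB was close to the limit of what these depths can show. It was at 0.898 and 0.518 CPM in YT shNT (17 and 9 counts) and at 1.71 and 1.39 CPM in YT shYEATS2 (41 and 27 counts). These did not overlap, but the difference did not pass (log2 fold change 1.04, SE 0.417, adjusted p = 0.0757), although it did in a fit of these groups alone (adjusted p = 0.0287) or with a block for the replicate number (adjusted p = 0.0312). The fit of these groups alone called 8784 of 18063 genes. In the other 4 groups FOSB lay between 0.753 and 1.46 CPM.

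FOSL1 (FRA1, a FOS protein without the activation domain of FOS; chromosome 11, GRCh38 65892049 to 65900573) was at 12.9 and 8.36 CPM in TC shNT, 19.4 and 14.6 CPM in TC shYEATS2, and 32.2 and 27.6 CPM in TC shZZZ3. The 3 groups of the TC line did not overlap. With shZZZ3 FOSL1 rose 2.80-fold (log2 fold change 1.48, SE 0.290, adjusted p = 0.0290), and with shYEATS2 the change on that scale was 0.67 (SE 0.292, adjusted p = 0.931). In YT it was at 18.5 and 21 CPM in shNT, 16.7 and 17.1 in shYEATS2, and 18.4 and 10.8 in shZZZ3. Neither hairpin effect passed in YT (-0.22, adjusted p = 0.611, and -0.43, adjusted p = 0.399), and the interaction for the ZZZ3 hairpin was -1.92 (SE 0.410, adjusted p = 0.0233). With the trend of each library against gene GC content removed, both falls in YT were called (-0.48, adjusted p = 0.0345, and -0.60, adjusted p = 0.0170).

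FOSL2 (FRA2), the main FOS family transcript here, had no call in any of the 7 comparisons, under its 8 alternatives or without any 1 library. It was at 106 and 92.9 CPM in TC shNT, 134 and 136 CPM in TC shZZZ3, 85.1 and 95 CPM in YT shNT, and 79.4 and 64.8 CPM in YT shZZZ3. With shZZZ3 the values lay above those of the control in TC and below them in YT, with log2 fold changes of 0.44 (SE 0.252) and -0.32 (SE 0.253), and the interaction did not pass (-0.76, SE 0.357, adjusted p = 0.312). The TC shYEATS2 libraries stood at 132 and 71.2 CPM, the widest replicate gap of this gene.

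**Figure D3:**
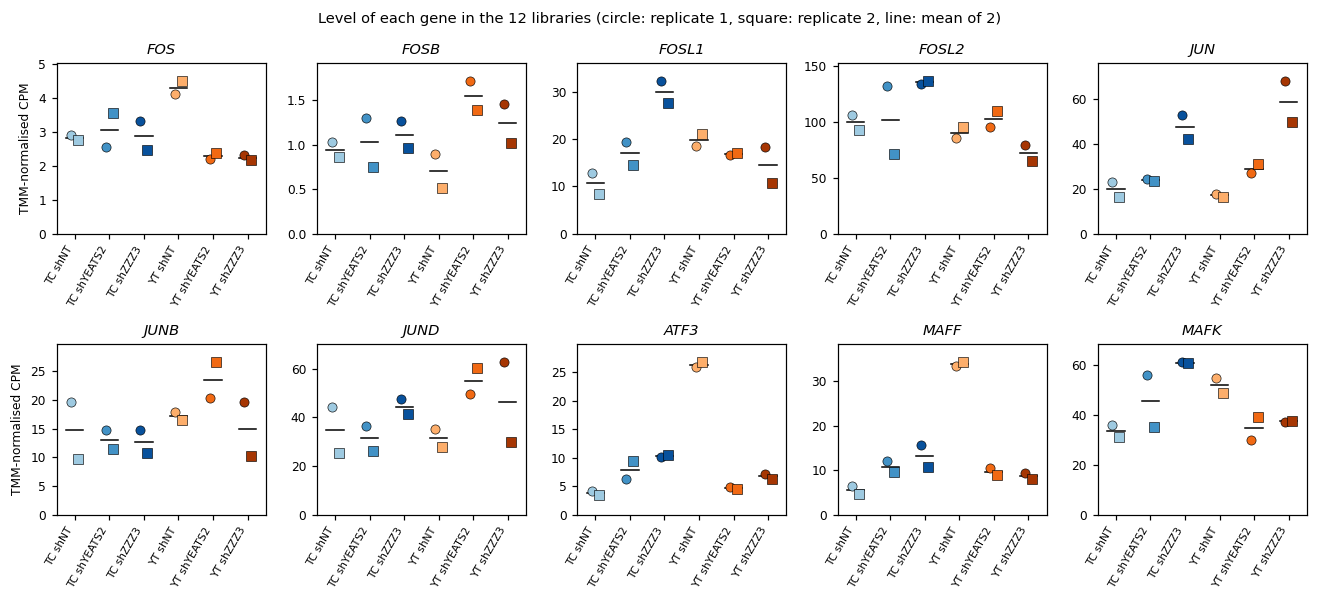
Level (TMM-normalised CPM, linear axis from 0) of each of the 10 genes in the 6 groups, with a circle for replicate 1, a square for replicate 2 and a line at their mean. ATF3 and MAFF stand at 25.8 to 34.2 CPM in YT shNT and below 16 CPM in the other 10 libraries, and JUN is highest in both shZZZ3 groups.

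JUN (chromosome 1, GRCh38 58776845 to 58784048) encodes the family member that most strongly activates transcription and that is known to act on its own promoter. It was at 23.3 and 16.4 CPM in TC shNT, 24.6 and 23.5 CPM in TC shYEATS2, and 52.9 and 42.4 CPM in TC shZZZ3. In YT it was at 17.9 and 16.4 CPM in shNT, 27 and 31.1 CPM in shYEATS2, and 68.1 and 50 CPM in shZZZ3. In both lines the shZZZ3 libraries were the highest and did not overlap any library with another hairpin. With shZZZ3 JUN rose 3.43-fold in YT (log2 fold change 1.78, SE 0.231, adjusted p = 0.00125) and 2.39-fold in TC (1.26, SE 0.230, adjusted p = 0.0220). The difference between the lines did not pass (0.52, SE 0.326, adjusted p = 0.484). With shYEATS2 the rise was 1.69-fold in YT (0.75, SE 0.232, adjusted p = 0.0404), and in TC it was at a log2 fold change of 0.27 (SE 0.231, adjusted p = 1). The rise with shZZZ3 in YT was called in each of 8 alternatives and without each of the 12 libraries. The rise with shYEATS2 in YT was called in the 8 alternatives but not without any 1 library of YT shNT, YT shYEATS2 or TC shZZZ3. Between the control lines JUN did not pass (-0.21, SE 0.233, adjusted p = 0.622).

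JUNB and JUND, which activate transcription less and are known to restrain JUN in many settings, had no call in the 7 comparisons. JUND was at 35.3 and 27.7 CPM in YT shNT and at 49.7 and 60.3 CPM in YT shYEATS2, which did not overlap (log2 fold change 0.80, SE 0.349, adjusted p = 0.128), and it was called under 5 of the 8 alternatives (adjusted p = 7.41e-04 to 0.0410). JUNB was at 18 and 16.6 CPM in YT shNT and at 20.4 and 26.6 CPM in YT shYEATS2 (0.44, SE 0.367, adjusted p = 0.418), and was called with only these groups fitted, where 8784 of 18063 genes were called. Both genes had wide replicate gaps elsewhere. JUND stood at 62.7 and 29.9 CPM in YT shZZZ3 and at 44.4 and 25.4 CPM in TC shNT, and JUNB at 19.6 and 10.2 CPM and at 19.7 and 9.75 CPM in the same groups.

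For JUND and JUNB these gaps went with base composition. JUND (69.9% GC) and JUNB (64.9%) have the most GC-rich transcripts of the 10 genes. The ratio of replicate 1 to replicate 2 of JUND was 1.75 in TC shNT and 2.09 in YT shZZZ3, and 0.966 and 1.23 once the trend against GC was removed. For JUNB the ratio went from 2.02 to 1.23 and from 1.92 to 1.25. JUN and FOSL1 also moved toward a ratio of 1 in both groups. MAFK (63.4% GC) moved away from it, from 1.16 to 0.724 and from 0.987 to 0.661. MAFF (61.9%) went from 1.36 to 0.873 and from 1.15 to 0.79, so that its gap closed in TC shNT and widened in YT shZZZ3. ATF3, the least GC-rich at 46.7%, went from 1.22 to 1.26 and from 1.13 to 1.10. With the trend removed JUND was called higher in YT shYEATS2, and JUNB higher in the YT control than in the TC control (log2 fold change 0.58, adjusted p = 0.0446).

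**Figure D4:**
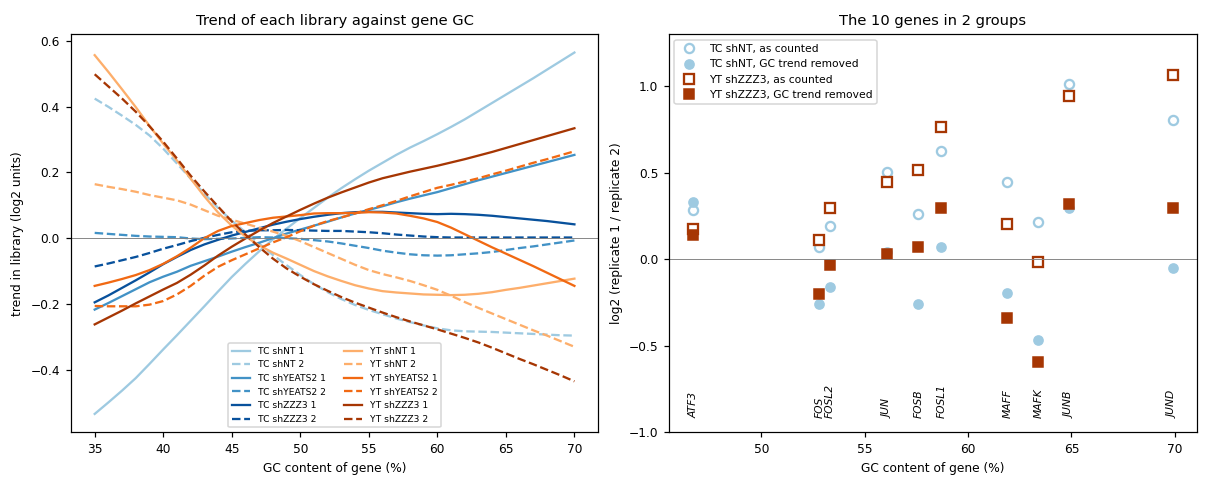
Left, the smoothed departure of each library from the mean of the 12 (log2 units) against gene GC content in percent, solid for replicate 1 and dashed for replicate 2. Right, the log2 ratio of replicate 1 to replicate 2 of the 10 genes in TC shNT and YT shZZZ3 as counted (open) and with the trend removed (filled), in which JUND moves from ratios of 1.75 and 2.09 to 0.966 and 1.23.

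ATF3 (chromosome 1, GRCh38 212565334 to 212620777) encodes a stress-induced factor that represses as a homodimer and can activate with JUN. It was at 4.2 and 3.44 CPM in TC shNT and at 25.8 and 26.7 CPM in YT shNT, 6.73-fold higher in the YT control (log2 fold change 2.75, SE 0.242, adjusted p = 1.03e-04). In YT it fell to 4.83 and 4.59 CPM with shYEATS2 and to 7.17 and 6.34 CPM with shZZZ3. The groups of the YT line did not overlap, and both hairpin groups still lay above TC shNT. The falls were 5.49-fold (-2.46, SE 0.240, adjusted p = 7.68e-05) and 3.85-fold (-1.94, SE 0.236, adjusted p = 8.31e-04).

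In TC ATF3 stood at 6.31 and 9.44 CPM with shYEATS2 and at 10.2 and 10.5 CPM with shZZZ3, above both TC shNT libraries. The rise with shZZZ3 passed (2.67-fold, log2 fold change 1.42, SE 0.244, adjusted p = 0.0146), and that with shYEATS2 did not (1.02, SE 0.245, adjusted p = 0.243), although DESeq2 called it (adjusted p = 0.0293). The interactions were -3.48 (SE 0.343, adjusted p = 1.83e-04) for the YEATS2 hairpin and -3.36 (SE 0.339, adjusted p = 5.91e-04) for the ZZZ3 hairpin. The call for TC shZZZ3 was lost with only the TC shZZZ3 and TC shNT libraries fitted (1.39, adjusted p = 0.0773), and without TC shNT replicate 2 or either TC shZZZ3 library (1.26 to 1.43, adjusted p = 0.0859 to 0.137).

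Of the small MAF genes, MAFF (chromosome 22, GRCh38 38200767 to 38216507), the stress- and cytokine-inducible one, followed ATF3 closely over the groups. It was at 6.37 and 4.68 CPM in TC shNT and at 33.3 and 34.2 CPM in YT shNT, 6.01-fold higher in the YT control (2.59, SE 0.255, adjusted p = 2.09e-04). With shYEATS2 it was at 10.4 and 8.83 CPM in YT and at 12 and 9.54 CPM in TC. With shZZZ3 it was at 9.28 and 8.08 CPM in YT and at 15.6 and 10.6 CPM in TC. MAFF fell with each hairpin in YT, by 3.48-fold with shYEATS2 (-1.80, SE 0.251, adjusted p = 6.68e-04) and 3.86-fold with shZZZ3 (-1.95, SE 0.251, adjusted p = 0.00119). In TC it rose 2.35-fold with shZZZ3 (1.23, SE 0.257, adjusted p = 0.0378), and the difference with shYEATS2 did not pass (0.95, SE 0.258, adjusted p = 0.330). The 4 groups with a targeting hairpin lay between 8.08 and 15.6 CPM. The interactions were -2.75 (SE 0.360, adjusted p = 8.55e-04) and -3.18 (SE 0.359, adjusted p = 0.00108).

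The calls of ATF3 and MAFF between the control lines, with either hairpin in YT and in both interactions were kept in each of 8 alternatives and without each of the 12 libraries. All of these comparisons use the 2 YT shNT libraries. Those in TC shZZZ3 were lost for both genes, and for FOSL1 and JUN, with only the groups of the comparison fitted (adjusted p = 0.0773 to 0.182) and without TC shNT replicate 2 or either TC shZZZ3 library, so that 0 of the 10 genes were called there. FOSL1 and MAFF also lost the call without any 1 library of YT shNT or YT shYEATS2, and MAFF without TC shNT replicate 1 as well.

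MAFK, the more abundant and more evenly expressed of both small MAF genes, was at 36.0 and 31.1 CPM in TC shNT, 56.0 and 35.1 CPM in TC shYEATS2, and 61.2 and 60.9 CPM in TC shZZZ3. In YT it was at 54.9 and 48.9 CPM in shNT, 30.1 and 39.2 CPM in shYEATS2, and 37.3 and 37.8 CPM in shZZZ3. No pairwise comparison passed, with log2 fold changes of 0.86 (SE 0.231, adjusted p = 0.119) in TC shZZZ3, -0.58 (SE 0.231, adjusted p = 0.0979) in YT shYEATS2 and -0.47 (SE 0.231, adjusted p = 0.243) in YT shZZZ3. Some alternatives did call it, among them DESeq2 (adjusted p = 0.0270) and no filter (adjusted p = 0.0461) in TC shZZZ3, only the groups compared (adjusted p = 0.00460) in YT shYEATS2, and removal of the GC trend in YT shYEATS2 (adjusted p = 0.0107) and between the control lines (adjusted p = 0.0176). The fit of only the YT shYEATS2 and YT shNT groups called 8784 of 18063 genes. Removal of the GC trend moved the replicate ratio of MAFK in TC shNT from 1.16 to 0.724. The interaction for the ZZZ3 hairpin passed (-1.33, SE 0.326, adjusted p = 0.0443), was called in each of 8 alternatives, and was lost without any 1 library other than those of TC shYEATS2. Of the exon bases of MAFK 18.1% overlap TMEM184A on the other strand, and of those of JUNB and MAFF 14.2% and 5.81% overlap HOOK2 and PLA2G6. The libraries were stranded, but the strand setting of the counting is not stated.

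Promoter sequences are shown for the 3 genes with the largest and most repeatable changes, JUN, ATF3 and MAFF, to set their letters beside the AP-1 sites named above. They are the 250 bases before the RefSeq transcript start in GRCh38.p14 (chr1:58784048-58784297 on the minus strand, chr1:212565157-212565406 and chr22:38201744-38201993 on the plus strand). ATF3 and MAFF each have a further RefSeq start, whose window is not shown. Each runs 5′ to 3′ along the gene, with capitals for matches to TGAGTCA, TGACGTCA or TGACATCA on either strand.
JUN: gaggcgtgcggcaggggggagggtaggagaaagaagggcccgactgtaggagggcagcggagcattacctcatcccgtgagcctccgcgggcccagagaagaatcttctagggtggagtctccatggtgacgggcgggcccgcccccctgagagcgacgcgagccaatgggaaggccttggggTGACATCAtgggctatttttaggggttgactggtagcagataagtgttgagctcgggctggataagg
ATF3: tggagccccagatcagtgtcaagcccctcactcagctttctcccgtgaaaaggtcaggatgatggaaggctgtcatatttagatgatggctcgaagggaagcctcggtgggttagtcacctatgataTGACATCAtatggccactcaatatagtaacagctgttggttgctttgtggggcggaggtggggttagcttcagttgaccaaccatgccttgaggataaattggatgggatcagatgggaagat
MAFF: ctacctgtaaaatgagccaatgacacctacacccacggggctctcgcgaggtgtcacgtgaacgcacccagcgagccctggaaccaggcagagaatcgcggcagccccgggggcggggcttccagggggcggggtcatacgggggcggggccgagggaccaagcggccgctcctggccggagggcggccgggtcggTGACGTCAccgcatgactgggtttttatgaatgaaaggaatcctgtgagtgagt

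RefSeq windows were matched for 8 of the 10 genes, with 10 windows in all, and none for FOSL1 and MAFK. TGACATCA stood in the window of JUN (positions -67 to -60 from the start) and in the ATF3 window shown (-123 to -116), and in 2.37% of 35116 windows of the same length. TGACGTCA stood in the MAFF window shown (-54 to -47) and in that of JUND (-200 to -193), and in 1.65% of all windows. The further windows of ATF3 and MAFF held neither. TGAGTCA (4.2% of all windows) was in none of the 10. Both windows of MAFF held CACGTG, the core letters that TFE3 and related factors bind, at -196 to -191 and at -81 to -76, as did 6.34% of all windows. GGAATG, the letters of a TEAD site (11.9% of all windows), TGATGCAA (0.772%) and the CArG box bound by SRF (1.16%) were in none of the 10. None of the motifs overlapped another in these windows. A match says only that the letters are present. The RefSeq starts used for ATF3 lie far apart, and which start SW872 cells use was not examined.

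Genes whose level followed that of a member most closely over the 12 libraries were listed for the 5 members whose group means spanned at least 2-fold. They were taken from 13257 genes whose mean count over the libraries was 50 or more (13258 for FOSB, itself below that), by Pearson's r of log2 CPM, given as a description because libraries of 1 group share their condition and base composition. For ATF3 they were GDF15, a stress-induced cytokine (r = 0.960), and KLF4, an immediate early zinc finger factor (0.949). For MAFF they were PPP1R15A (GADD34), which restores translation after stress (0.963), and SUPV3L1, a mitochondrial RNA helicase (0.949). The r between ATF3 and MAFF was 0.933. For JUN they were the receptor genes DRD2 (0.937) and NGFR (0.933). For FOSL1 they were MYH9, a non-muscle myosin heavy chain (0.953), and ADGRG1, an adhesion receptor (0.897). For FOSB they were SERTAD4-AS1 (0.913) and NDRG3 (0.900).

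Other basic leucine zipper genes were described next, as the partners and competitors of the 10 factors. Of 17 listed, 15 were tested. In YT shYEATS2 3 rose and 2 fell, in YT shZZZ3 2 fell, and between the control lines 1 was higher and 2 were lower in YT. The shares of all genes called there were 20.7%, 10% and 9.23%. NFE2L1, an NRF2 relative that pairs with small MAF proteins, was at 470 and 429 CPM in TC shNT and at 1070 and 1230 CPM in YT shNT (log2 fold change 1.35, SE 0.169, adjusted p = 7.44e-04). It fell in YT to 718 and 748 CPM with shYEATS2 (-0.65, SE 0.169, adjusted p = 0.0199) and to 619 and 559 CPM with shZZZ3 (-0.96, SE 0.169, adjusted p = 0.00506). BACH1, the repressor partner of small MAF proteins, fell with shYEATS2 in YT from 113 and 88.2 CPM to 36.1 and 36.7 CPM (-1.47, SE 0.378, adjusted p = 0.0204). JDP2, a repressor that pairs with JUN, fell with shZZZ3 in YT from 37.8 and 39.4 CPM to 19.9 and 11.8 CPM (-1.28, SE 0.255, adjusted p = 0.00981). NFE2, a partner of small MAF proteins in blood cells, was low throughout and rose with shYEATS2 in YT from 3.01 and 3.51 CPM to 6.53 and 7.12 CPM (1.05, SE 0.253, adjusted p = 0.0125). In TC no gene of the list passed in edgeR, where 3 in shYEATS2 and 4 in shZZZ3 had an unadjusted p under 0.05 and DESeq2 called 0 and 1. Of all 18415 genes 927 and 1991 had an unadjusted p under 0.05 there, and DESeq2 called 117 and 532.

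Of the other immediate early genes 18 of 19 were tested, and they moved in both directions. In YT shYEATS2 4 rose and 2 fell, where 9.61% and 11.1% of all genes did, with a median log2 fold change of -0.16 against -0.01 for all genes. In YT shZZZ3 2 rose and 2 fell (4.4% and 5.62% of all genes, median 0.05 against 0.01), and between the control lines 3 were higher in YT (5.58% of all genes, median 0.41 against -0.01). KLF4, which was among the genes most like ATF3, was at 2.02 and 3.39 CPM in TC shNT and at 14.4 and 14.8 CPM in YT shNT (2.40, SE 0.318, adjusted p = 0.00110). It fell in YT to 2.96 and 3.87 CPM with shYEATS2 (-2.07, SE 0.315, adjusted p = 0.00111) and to 4.88 and 5.20 CPM with shZZZ3 (-1.52, SE 0.307, adjusted p = 0.0102). Both interactions of KLF4 passed (-3.30, SE 0.450, adjusted p = 0.00103, with the YEATS2 hairpin, and -2.88, SE 0.445, adjusted p = 0.00529, with the ZZZ3 hairpin). IER5 moved the other way with both hairpins in YT, from 24 and 24.9 CPM to 70 and 62.7 CPM with shYEATS2 (1.44, SE 0.257, adjusted p = 0.00301) and to 57.9 and 43.7 CPM with shZZZ3 (1.05, SE 0.257, adjusted p = 0.0255). NR4A1, a nuclear receptor of the same class, fell with shYEATS2 in YT from 15.8 and 15.5 CPM to 5.70 and 8.05 CPM (-1.18, SE 0.278, adjusted p = 0.0125). Its relative NR4A2 was low and rose there from 1.11 and 0.633 CPM to 4 and 3.61 CPM (2.01, SE 0.346, adjusted p = 0.00144). CCN1, a target of both YAP and SRF, was the 1 gene of the list called in TC shZZZ3, from 46.3 and 37.6 CPM to 123 and 113 CPM (1.49, SE 0.258, adjusted p = 0.0171). With the GC trend removed 5 genes of the list were called there, and 6 between the control lines, where 680 and 3403 of all 18415 genes were called.

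Genes of the MAPK cascade and of SRF and its partners, which induce the immediate early genes, were described as their inducers. Of 18 tested, MAPK10 rose in YT shYEATS2 from a low level, 2.11 and 1.44 CPM, to 3.87 and 4.34 CPM (1.16, SE 0.319, adjusted p = 0.0215). MAPK9 fell there from 52.9 and 53.1 CPM to 31.8 and 33.8 CPM (-0.69, SE 0.194, adjusted p = 0.0275), where 20.7% of all genes were called. No other call was made in the 7 comparisons by edgeR. The median log2 fold changes of the list lay between -0.04 and 0.12. In the 6 comparisons with no call 0 to 3 genes had an unadjusted p under 0.05 (927 to 4508 of all 18415 genes). DESeq2 called 117 to 2355 of all genes there, and 0 or 1 of the list. With the GC trend removed 5 were called in YT shYEATS2, 4 in YT shZZZ3 and 3 between the control lines, where 5719, 3790 and 3403 of all 18415 genes were called.

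Known AP-1 target genes were then described (15 of 17 tested), since many are also targets of YAP and TAZ. Between the control lines 7 were higher and 1 was lower in YT, where 9.23% of all genes were called and 5.58% were higher, with a median log2 fold change of 0.99 against -0.01 for all genes. MMP1, a collagenase, was at 4.28 and 6.44 CPM in YT shNT and at 0.381 and 1.19 CPM in TC shNT (2.67, SE 0.649, adjusted p = 0.0211). IL6 was at 2.11 and 3.05 CPM against 0.572 and 0.239 CPM (2.40, SE 0.441, adjusted p = 0.00331), whereas MMP9, a gelatinase, was lower in YT at 2.38 and 2.19 CPM against 9.27 and 6.88 CPM (-1.79, SE 0.454, adjusted p = 0.0301). The TC shNT values of MMP1 and IL6 rest on few counts. In TC shZZZ3, 3 of the 15 rose (median 0.69), as did 0.934% of all genes. Among them PLAU, the urokinase gene, went from 39.5 and 30.5 CPM to 85.6 and 77.6 CPM (1.22, SE 0.223, adjusted p = 0.0223).

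In YT the targets divided. With shYEATS2 2 rose and 3 fell, where 9.61% of all genes rose and 11.1% fell. MMP9 went from 2.38 and 2.19 CPM to 12.2 and 17.6 CPM (2.66, SE 0.450, adjusted p = 0.00210), and CD44, a hyaluronan receptor, from 330 and 365 CPM to 1000 and 868 CPM (1.43, SE 0.181, adjusted p = 3.46e-04). VEGFA fell from 247 and 278 CPM to 82.4 and 104 CPM (-1.49, SE 0.235, adjusted p = 0.00144). With shZZZ3 3 fell and none rose, where 5.62% of all genes fell. VEGFA went to 59.6 and 72 CPM (-2.00, SE 0.235, adjusted p = 8.25e-04) and IL6 to 0.509 and 0.804 CPM (-1.85, SE 0.402, adjusted p = 0.00985). With the GC trend removed 5 of the 15 were called in TC shZZZ3 and 8 in YT shYEATS2, where 680 and 5719 of all 18415 genes were called.

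Target genes of NRF2 with small MAF partners were all measured (17 of 17). In YT shZZZ3 9 fell and none rose, where 5.62% of all genes fell, with a median log2 fold change of -1.24 against 0.01 for all genes. In YT shYEATS2 5 fell and 1 rose (11.1% and 9.61% of all genes, median -0.26), and 4 were higher in the YT control than in the TC control (5.58% of all genes, median 0.51). SLC7A11, the cystine transporter, was at 144 and 71.8 CPM in YT shNT and at 3.55 and 20.8 CPM in TC shNT (3.15, SE 0.618, adjusted p = 0.0130). It fell in YT to 17.4 and 19 CPM with shYEATS2 (-2.57, SE 0.614, adjusted p = 0.0170) and to 11.9 and 15.7 CPM with shZZZ3 (-2.96, SE 0.615, adjusted p = 0.0159). BLVRB, biliverdin reductase B, was at 189 and 186 CPM in YT shNT, against 54.2 and 30.2 CPM in TC shNT (2.15, SE 0.353, adjusted p = 0.00428) and 36.2 and 38.3 CPM in YT shYEATS2 (-2.33, SE 0.354, adjusted p = 0.00135). OSGIN1, an oxidative stress growth inhibitor, fell with shZZZ3 in YT from 77.2 and 75.9 CPM to 20.2 and 11.2 CPM (-2.28, SE 0.415, adjusted p = 0.00730).

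NFE2L2 itself, named here after its values were seen, was called in no comparison, with log2 fold changes of -0.76 (adjusted p = 0.0775) and -0.97 (adjusted p = 0.0531) for the hairpins in YT. In TC no NRF2 target passed in edgeR, where 4 in shYEATS2 and 1 in shZZZ3 had an unadjusted p under 0.05 and DESeq2 called 1 and 0. Of all 18415 genes 927 and 1991 had an unadjusted p under 0.05 there, and DESeq2 called 117 and 532. The interaction was called, lower in YT, for 5 NRF2 targets with the YEATS2 hairpin (5.84% of all genes). With the ZZZ3 hairpin it was called, lower in YT, for 2 of these targets (2.86% of all genes). The interaction of SLC7A11 with the YEATS2 hairpin was -3.92 (SE 0.874, adjusted p = 0.0189), and that of ME1, malic enzyme, with the ZZZ3 hairpin was -2.23 (SE 0.416, adjusted p = 0.0135). With the GC trend removed 8 were called between the control lines, and 8 and 9 in the interactions, where 3403, 3608 and 1945 of all 18415 genes were called.

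**Figure D5:**
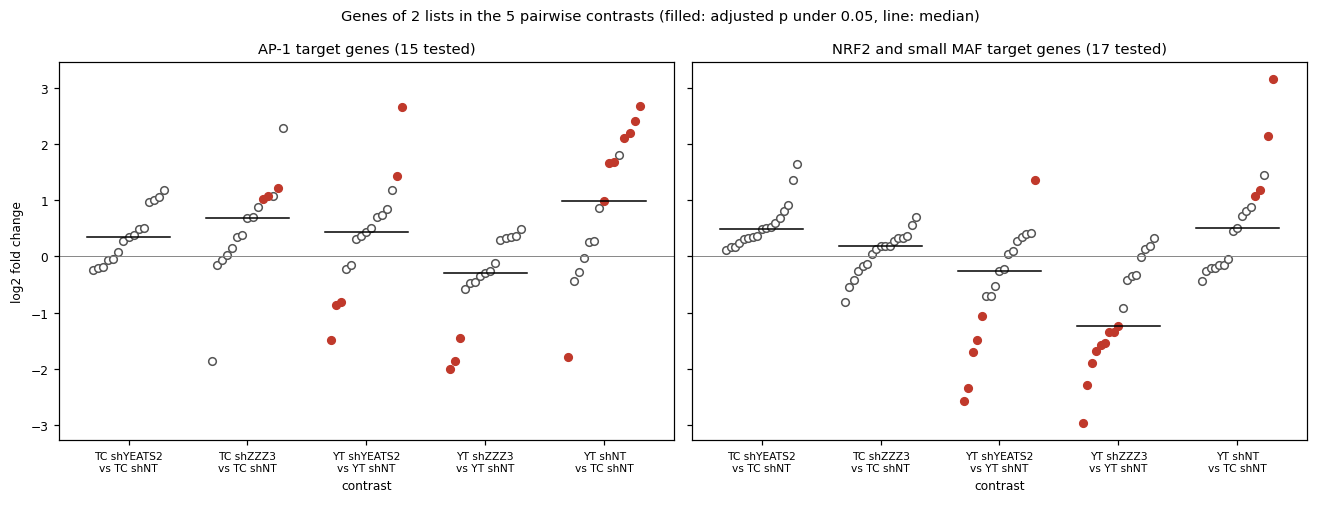
Log2 fold change of each tested gene of the AP-1 target list (15 genes, left) and of the NRF2 and small MAF target list (17 genes, right) in the 5 pairwise comparisons, filled where the adjusted p is under 0.05, with a line at the median. The AP-1 targets lie mostly above 0 between the control lines (7 called higher, 1 lower), and 9 of the NRF2 targets are called lower in YT shZZZ3.

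Markers of other cell types also moved in YT shZZZ3. Of 6 markers (EPCAM and CDH1, epithelial, PECAM1 and CDH5, endothelial, and PTPRC and CD3E, blood), 3 were above 1 CPM in any library and PTPRC was at most 0.158 CPM. Their summed level was 100 to 111 CPM in YT shZZZ3 against 25.1 to 25.4 in YT shNT, 19.8 to 21 in YT shYEATS2, 39.9 to 43.1 in TC shNT, 39.1 to 43.6 in TC shZZZ3 and 33.6 to 110 in TC shYEATS2. PECAM1 (3.08, SE 0.461, adjusted p = 0.00242) and CDH5 (1.93, SE 0.395, adjusted p = 0.0121) rose in YT shZZZ3. The summed level of the 8 mesenchymal markers was 5410 to 6870 CPM in TC shZZZ3 and 5720 to 5910 CPM in YT shZZZ3, against 10400 to 12300 and 10200 to 12500 CPM in their controls. FN1, the most abundant of them, fell in both (-1.29, adjusted p = 0.0465, and -1.63, adjusted p = 0.00461). Of the 8 markers 3 rose and 1 fell in YT shZZZ3 (median 0.67), with COL1A1 at 1.57, where 4.4% of all genes rose and 5.62% fell. In TC shZZZ3 2 of the 8 fell (median -0.05), where 109 of 18415 genes were called lower. The part of these shifts in the changes of JUN, ATF3 and MAFF was not tested.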

How the data were processed

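RNA was measured in 12 libraries of SW872 cells (6 groups of 2). Per the labels and the methods of the study, poly(A) libraries were stranded and sequenced paired-end, reads were aligned to hg38 with HISAT2 in the bcbio-nextgen pipeline, and Salmon estimates were also described. Which of these made the raw whole-number counts per Ensembl gene that the authors deposited, and how strand and multiply mapped reads were counted, is not given in the sources used here. The submitters' processing notes name bcl2fastq and hg38.

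Genes with a mean count of at least 5 were kept (18415 of 58735 rows). Counts were normalised by TMM, and all 6 groups were fitted together with the robust quasi-likelihood test of edgeR 4.0.16 (R 4.3.3, limma 3.58.1), two-sided, with a prior count of 2 and 6 residual degrees of freedom. P-values were adjusted over all genes tested (Benjamini-Hochberg), and a gene was called at an adjusted p under 0.05. Interactions were contrasts of the same fit. Levels are TMM-normalised CPM, per kb of merged exons in GENCODE 44 (GRCh38, 99.1% of rows found) where genes are compared. The alternatives were DESeq2 size factors, library totals, no filter beyond 1 count, DESeq2 1.42.0, only the groups of a comparison, a replicate block, removal of each library's lowess trend against gene GC content (known for 99.4% of the genes tested) without and with that block, and leaving out each library. The tests were checked on simulated data.

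Of the other lists at most 2 risers and 2 fallers a comparison were named, those with the largest change among called genes whose groups did not overlap. EGR3 was left out, as it was close to 0 in the lower group (0.114 and 0.239 CPM in TC shNT). By the rule it was the first riser of its list between the control lines (log2 fold change 3.11) and the first faller in YT shZZZ3 (-2.62). IL6 and MMP1, also low in TC shNT, were kept. Some genes that this rule names are not reported here. The 10 genes and the lists were chosen with earlier results of these data known. The study describes the knock-down RNA sequencing as done in biological duplicates. For its sequencing in general it describes triplicates from separate transductions. Whether the duplicates used here also came from separate transductions is not stated, so p-values measure the spread between these samples. Total counts of 17451893 to 29294805 set the counting precision, and of the 10 genes FOSB had the lowest counts (9 to 41). Some values of the other lists rest on fewer, such as IL6 at 0.239 CPM in 1 library of TC shNT, where the lowest FOSB value was 0.518 CPM.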

Additional observations from a re-analysis of the deposited data

Results flagged for a closer look

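The effect of a hairpin differed between the lines, by the interaction test of edgeR over all genes, for 4 of the 10 genes. With the YEATS2 hairpin the log2 fold change in YT less that in TC was -3.48 for ATF3 and -2.75 for MAFF. With the ZZZ3 hairpin it was -3.36 for ATF3, -3.18 for MAFF, -1.92 for FOSL1 and -1.33 for MAFK. For ATF3 and MAFF the libraries with either hairpin lay below the controls in YT and above them in TC. Their rises in TC shYEATS2 did not pass in edgeR (adjusted p = 0.243 and 0.330). The calls in TC shZZZ3 were lost with only the groups of the comparison fitted (adjusted p = 0.0773 and 0.182). For FOSL1 and MAFK the change in YT with shZZZ3 did not itself pass. The interaction of FOSL1 did not pass with only the groups of the comparison fitted (adjusted p = 0.0545) nor without any 1 library of TC shZZZ3, YT shNT or YT shYEATS2 or without YT shZZZ3 replicate 2, and that of MAFK not without any 1 library other than those of TC shYEATS2.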

How the results depend on the processing

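Of the 10 genes, the count called was 0 in TC shYEATS2, 4 in TC shZZZ3, 4 in each hairpin comparison in YT, 2 between the control lines, and 2 and 4 in the YEATS2 and ZZZ3 interactions. With DESeq2 it was 1 in TC shYEATS2 (ATF3). With only the groups of a comparison fitted it was 0 in TC shZZZ3 and 8 in YT shYEATS2, where 155 of 18285 and 8784 of 18063 genes were called. With the GC trend removed it was 7 in YT shYEATS2, 5 between the control lines and 6 in the YEATS2 interaction, and the same with the replicate block added. Without the block 5719, 3403 and 3608 of all 18415 genes were called there. With 1 library left out it ranged from 0 to 5 in TC shZZZ3, 2 to 5 in YT shYEATS2, 3 to 4 in YT shZZZ3, 2 to 3 between the control lines and in the YEATS2 interaction, and 2 to 4 in the ZZZ3 interaction. The cause was not tested.

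Replicate numbers are shared between groups, but the labels tie them to nothing, and over 15 pairs of groups the correlation of same-numbered deviations ran from -0.438 to 0.898, with 8 at or under 0.1. With the replicate block 0, 4, 6, 4, 3, 2 and 4 of the 10 genes were called in the order above, and over all genes 28, 353, 4656, 2283, 2225, 2178 and 1021 against 8, 281, 3821, 1846, 1699, 1725 and 795.

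Over all genes other settings moved these counts by more than 1.5 times. Removing the GC trend gave 55, 680, 3790, 3403, 3608 and 1945 where the main counts were 8, 281, 1846, 1699, 1725 and 795. Testing all 32987 genes with a count gave 213, 744, 2710, 2611 and 1549 in TC shYEATS2, TC shZZZ3, between the control lines and in the interactions. DESeq2 gave 117 in TC shYEATS2, 532 in TC shZZZ3 and 1274 in the ZZZ3 interaction. With only the groups of a comparison fitted the counts were 2 in TC shYEATS2, 155 in TC shZZZ3, 8784 in YT shYEATS2 and 994 between the control lines.

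With 1 library left out the counts over all genes ran from 0 to 77, 50 to 498, 1516 to 5069, 501 to 2577, 470 to 3112, 789 to 3029 and 206 to 1144 in the order above, and the shares of all genes called move with them. The counts in YT shZZZ3 and between the control lines were lowest without YT shNT replicate 2 and highest without TC shNT replicate 2.

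None of the changes that reversed in sign was called. With the GC trend removed, without and with the block, the log2 fold change was -0.02 and -0.02 for FOSL2 in TC shYEATS2, -0.03 and -0.02 for FOS in TC shZZZ3, 0.26 and 0.26 for JUND between the control lines, and -0.21 and -0.21 for JUND in the ZZZ3 interaction. JUNB in that interaction was 0.07 without the filter and 0.03 with only its groups fitted. With 1 library left out FOS ran from -0.16 to 0.30 in TC shYEATS2 and -0.20 to 0.23 in TC shZZZ3, FOSB from -0.32 to 0.41 in TC shYEATS2, and FOSL2 from -0.50 to 0.39 in TC shYEATS2 and -0.19 to 0.70 in the YEATS2 interaction. JUN ran from -0.47 to 0.04 between the control lines. JUNB ran from -0.61 to 0.40 in TC shYEATS2, -0.65 to 0.37 in TC shZZZ3, -0.21 to 0.80 between the control lines, -0.70 to 0.17 in YT shZZZ3 and -0.56 to 0.45 in the ZZZ3 interaction. JUND ran from -0.51 to 0.30, -0.03 to 0.79, -0.52 to 0.29, -0.02 to 0.98 and -0.35 to 0.67 in the same order. With 2 libraries a group, leaving 1 out assumes that the remaining one varies like the other groups. At 9 to 41 counts FOSB could show only large changes.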
